A study of Ctenopharyngodon idella with 6 samples.

Results

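The miR-204 and miR-211 names of a plasma exosome small RNA table were examined in grass carp (Ctenopharyngodon idella), a freshwater fish, to find out how this pair differed between fast-growing and slow-growing fish and which of its names and arms carried the difference. Entries were chosen by name alone, as every known miRNA whose family is exactly miR-204 or miR-211, in any species and arm, and 13 of the 2925 known entries met this rule, 8 of miR-204 and 5 of miR-211. Exosomes, small vesicles that cells release into body fluids, had been isolated from the plasma of fish of about 10 months of age after 9 months in the same high-density pond. The large fish group comprised 6 fish in 3 libraries (L1 to L3, plasma of 2 fish pooled in each). The small fish group comprised 15 fish in 3 libraries (S1 to S3, plasma of 5 fish pooled in each). The labels name no agent or genotype for either group, and the genetic sex of the fish was not determined. Because large fish were pooled by 2 and small fish by 5, pool size and fish size cannot be told apart. Between 5272418 (L1) and 11524535 (S2) miRNA counts were recovered per library, and values are given in CPM, miRNA counts scaled to the same total in each library.

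miRNAs are short RNAs that guide repression of messenger RNAs, mainly through the seed, bases 2 to 8 from their 5′ end. In mammals, miR-204 is encoded within an intron of TRPM3 and miR-211 within an intron of TRPM1, both cation channel genes. The pair is known from melanocytes, retinal pigment epithelium and choroid plexus. In melanocytes, MITF, the regulator of pigment cell fate, drives TRPM1 and its miRNA. Each hairpin can give a 5p and a 3p strand, of which the 5p strand is the one usually kept. In the HZGC01 build of the grass carp genome, trpm3 lies on chromosome 5 from 27213223 to 27351936 and trpm1a on chromosome 7 from 5800265 to 5821419; the positions of the hairpins were not analysed here.

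The 9 names of the 5p strand share 1 seed, TCCCTTT, and no other entry of the table had it. They are shown here because they are alike over most of their length, mouse miR-204 and miR-211 differing at base 17 alone. They are written as deposited, 5′ to 3′, with the seed in capitals, from miRBase names of mouse (mmu), python (pbv), medaka (ola), pufferfish (tni), a bat (efu), goat (chi), cattle (bta) and human (hsa).
mmu-miR-204-5p: tTCCCTTTgtcatcctatgcct
pbv-miR-204-5p: tTCCCTTTgtcatcctatgcctg
ola-miR-204: tTCCCTTTgtcatcctatgc
tni-miR-204b: tTCCCTTTgttatcctatgcct
mmu-miR-211-5p: tTCCCTTTgtcatcctttgcct
efu-miR-211: tTCCCTTTgtcatcctttgcctcgg
chi-miR-211: tTCCCTTTgtcatcctttgccc
bta-miR-211: tTCCCTTTgtcatcctttgcc
hsa-miR-211-5p: tTCCCTTTgtcatccttcgcct
Counted from the 5′ end of mmu-miR-204-5p, the miR-211 names carry A17T, chi-miR-211 also carries T22C and hsa-miR-211-5p also carries T18C, while tni-miR-204b carries C11T. The 4 names of the 3p strand, all of miR-204, come from zebrafish (dre), Atlantic salmon (ssa) and platypus (oan), and are shown with bases 2 to 8 in capitals because each of them was at 0 in at least 1 large fish library.
dre-miR-204-3-3p: gCAGGGACagcaaagggaggc
ssa-miR-204-3p: gCAGGGACagcaaagggatgc
dre-miR-204-2-3p: gCTGGGACagcaaagggaggt
oan-miR-204-3p: cAGGGACAgcaaagggatga
Counted from the 5′ end of dre-miR-204-3-3p, ssa-miR-204-3p carries G19T, dre-miR-204-2-3p carries A3T and C21T, and oan-miR-204-3p, which starts 1 base further in, carries G19T and C21A.

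The 13 names held 9 distinct sets of values, 5 for the 5p names and 4 for the 3p names. The names mmu-miR-204-5p, pbv-miR-204-5p and ola-miR-204, which differ only in length, had the same count in every library, as did mmu-miR-211-5p with efu-miR-211, and chi-miR-211 with bta-miR-211. Such sharing was common in the table, where 72.4% of the 2925 names had the same values as at least 1 other name. Names of a set are therefore treated below as 1 measurement, represented by the first name above.

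The 5p strand of miR-204 stood at 67.3 CPM in L1, 40.9 in L2 and 77.3 in L3, against 475 in S1, 273 in S2 and 705 in S3 (mmu-miR-204-5p). Every large fish library lay below every small fish library, and within the groups L2 and S2 were the lowest. Large fish averaged 61.8 ± 18.9 CPM and small fish 484 ± 216 (SD, n = 3 pools each). These values rest on 313 to 504 counts in large fish and 3145 to 5247 in small fish, with exact 95% Poisson intervals of 36.5 to 45.6 CPM in L2 and 686 to 724 in S3. The intervals cover counting error only. Those of L1, 60.5 to 74.7 CPM, and L3, 70.7 to 84.4, overlapped, and no other pair of pools did. The log2 difference of log2(CPM + 1), large minus small fish, was -2.89 (standard error 0.40, limma adjusted p = 0.0138), a level 7.43-fold higher in small fish on that scale. In the order of mean levels over 496 families, each taken at its most abundant name, miR-204 stood at place 72 in large fish and at place 36 in small fish.

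The miR-211 name showed the same order of libraries at a slightly lower level. The mmu-miR-211-5p entry had 283 counts in L1, 231 in L2 and 391 in L3, against 2571 in S1, 2802 in S2 and 4437 in S3, which gave 30.2 CPM in L2, its lowest library, and 596 in S3, its highest. The groups did not overlap, with averages of 47.9 ± 15.7 CPM for large fish and 408 ± 178 for small fish (SD, n = 3 pools each). Its log2 difference was -3.03 (standard error 0.40, limma adjusted p = 0.0138), the lowest of the 1807 entries tested with limma. Among the 152 families tested, miR-211 had the lowest log2 difference and miR-204 the next lowest. These places refer to log2(CPM + 1), where the added 1 limits the difference of rare names missing from large fish. The name ppc-miR-2274, without a count in any large fish library, averaged 4.19 CPM for small fish, with a log2 difference of -2.32. Whether the order holds with a smaller added value was not tested. The pufferfish name tni-miR-204b averaged 58.7 ± 17.8 CPM for large fish and 464 ± 206 for small fish (SD, n = 3 pools each), with a log2 difference of -2.91 (standard error 0.40, limma adjusted p = 0.0138). The goat name chi-miR-211 was an order of magnitude rarer, with 19 counts in L1, 23 in L2 and 35 in L3 against 226 in S1, 217 in S2 and 372 in S3. Large fish averaged 3.99 ± 1.23 CPM and small fish 34.2 ± 15.6 (SD, n = 3 pools each), and its log2 difference was -2.74 (standard error 0.39, limma adjusted p = 0.0138).

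**Figure D1:**
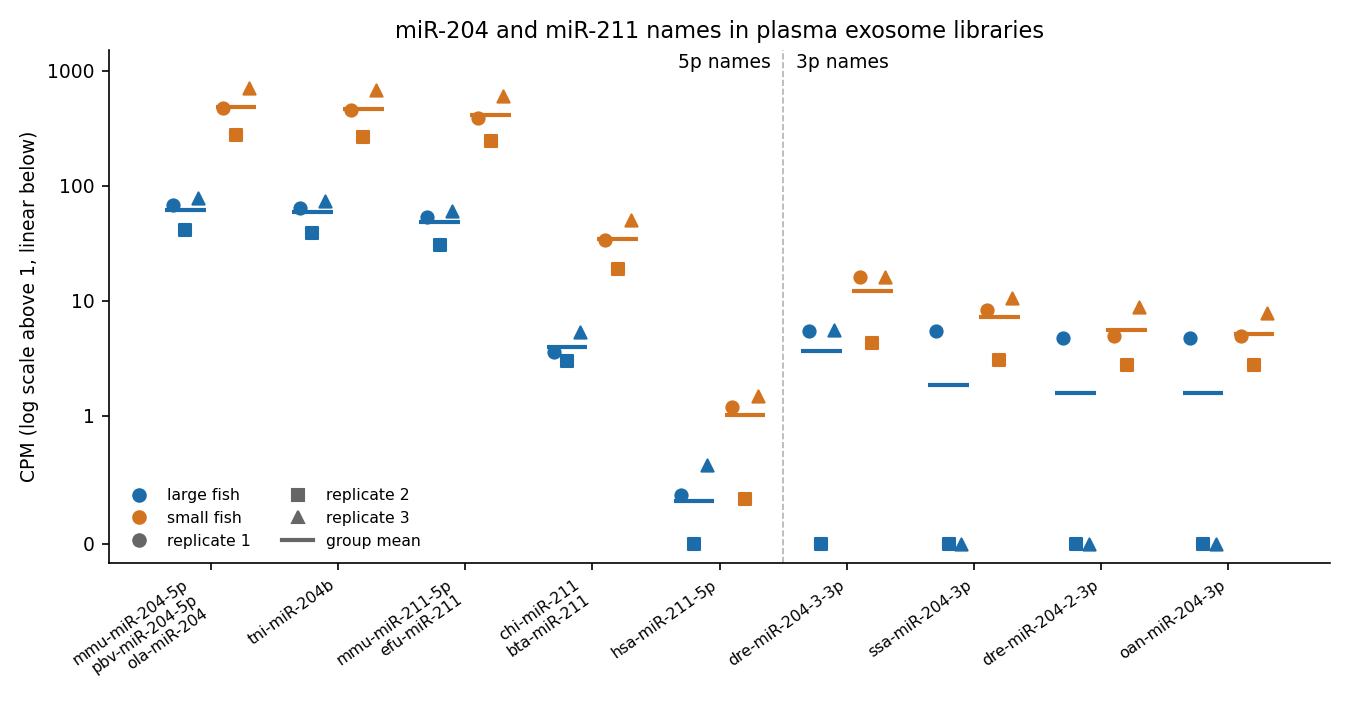
CPM of the 9 distinct sets of values of the miR-204 and miR-211 names in the 6 libraries (y axis, logarithmic above 1 CPM and linear below), with large fish in blue, small fish in orange, a marker for each replicate and bars for the group means. For the 5p names mmu-miR-204-5p, tni-miR-204b, mmu-miR-211-5p and chi-miR-211 every large fish library lies below every small fish library, while hsa-miR-211-5p and the 3p names overlap and reach 0 CPM in L2.

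Of the 13 entries, 12 were tested, those that reached 1 CPM in 3 or more libraries, and 8 of these passed as lower in large fish and 0 as higher. The threshold was a limma adjusted p of at most 0.05 with a fold of at least 1.5. Over the whole table, 14.2% of the 1807 tested entries passed as lower and 2.82% as higher. The 8 are the 5p names other than hsa-miR-211-5p, in 4 distinct sets of values, and each had at least 1 CPM in all 6 libraries, so that their entry into the test did not rest on the small fish. By contrast, ssa-miR-204-3p, dre-miR-204-2-3p and oan-miR-204-3p reached 1 CPM in L1 alone among the large fish libraries and were tested because of their level in small fish, so their direction is not counted here. The dre-miR-204-3-3p entry reached 1 CPM in L1 and L3 but not in L2. It therefore also needed the small fish to be tested, and its direction is not counted either. Every large fish library was below every small fish library in these 8 entries, as it was in 29.6% of all tested entries. The log2 differences of these 8 lay between -3.03 and -2.74, and the median over all 1807 tested entries was -0.26. On counts recovered from the CPM, edgeR's quasi-likelihood test passed 22 entries as lower and 24 as higher. Its bias-corrected form passed 148 and 95, and with each form 8 miR-204 and miR-211 entries were among the lower ones. With edgeR's exact test, 8 also passed as lower and 0 as higher, where 207 entries of the whole table passed as lower and 145 as higher. DESeq2 also gave 8 and 0, and passed 195 and 175 over the whole table. The calls rest on 3 pools per group: without L1 or without L2 none of the entries passed, at adjusted p of 0.0584 and 0.0556 for mmu-miR-204-5p (limma), and log2 differences of -2.98 and -2.63, and without S3, 6 passed. At an unadjusted p under 0.05, limma gave all 8 of these 5p entries as lower both without L1 and without L2, where 21.6% and 24.6% of all tested entries were lower at that level. Over the whole table, limma then passed 3 entries as lower and 5 as higher without L1, 0 and 0 without L2, and 10 and 12 without S3.

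**Figure D2:**
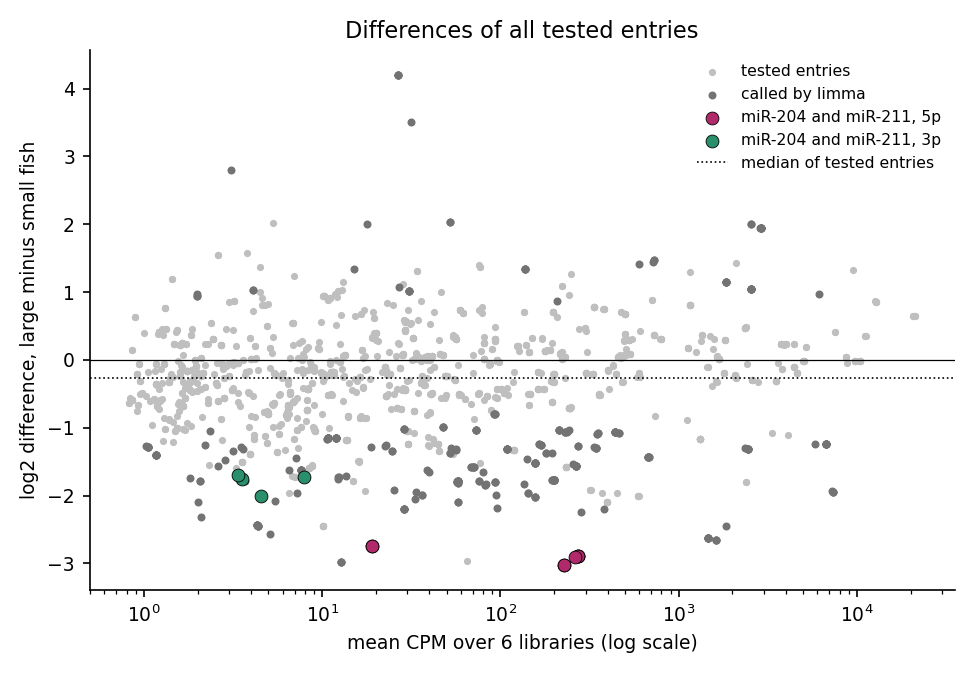
Log2 difference between large and small fish (y axis) against mean CPM over the 6 libraries (x axis, logarithmic) for the 1807 tested entries in grey, those that passed the limma threshold in dark grey, and the tested miR-204 and miR-211 entries in colour by strand. The 5p entries lie between -3.03 and -2.74, at the lower edge of the plot, and the 3p entries between -2.01 and -1.70. The 3p entries needed the small fish to be tested, so their direction is not counted. The median of -0.26 is shown as a dotted line.

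Between miR-204 and miR-211, which differ by the substitution A17T in the mouse names, levels kept a nearly fixed ratio. The mmu-miR-211-5p entry was at 79.7% of mmu-miR-204-5p in L1, 73.8% in L2 and 77.6% in L3, against 81.0% in S1, 89.1% in S2 and 84.6% in S3. The ratio averaged 77.0% ± 3.00 for large fish and 84.9% ± 4.07 for small fish (SD, n = 3 pools each), a difference of -7.84 percentage points, and the groups did not overlap (2-sided exact permutation, p = 0.1 and 0.2 adjusted over the 4 ratios tested, where 0.1 is the least that 3 against 3 libraries can give). The tni-miR-204b entry, with C11T in the middle of the molecule, was at 94.1% to 96.2% of mmu-miR-204-5p over the 6 libraries (2-sided exact permutation test, p = 0.1, adjusted p = 0.2). Ratios of this size are frequent between similar names. There were 764 pairs of names of equal length that are 1 substitution apart, each name with a mean of at least 1 CPM. The rarer name reached at least 0.5 times the level of the other in 69.1%, and the median was 0.853. Pairs with the same values were not left out and the substitution could be at any base, so these shares are not specific to substitutions such as A17T or C11T. How many reads were counted under both miR-204 and miR-211 was not analysed here, so their values are not independent evidence of each other.

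A much larger step in level lay between mmu-miR-211-5p and the names chi-miR-211 and bta-miR-211, which do not have its T at base 22. No such step was seen for ola-miR-204, which also lacks base 22 and had the values of mmu-miR-204-5p. The chi-miR-211 entry, which ends in C instead of T (T22C), and bta-miR-211, which lacks that base, were both at 6.71% to 9.96% of mmu-miR-211-5p over the 6 libraries, with group means of 8.54% and 8.31% (2-sided exact permutation test, p = 0.8, adjusted p = 0.8). The sequence of bta-miR-211 is the beginning of that of mmu-miR-211-5p, and of 1585 such pairs among all names, each with a mean of at least 1 CPM, 54.6% had the same values. The human name hsa-miR-211-5p, with T18C, had 2, 0 and 4 counts in the large fish libraries and 8, 4 and 11 in the small fish libraries. It was at or above 1 CPM in 2 libraries, S1 and S3, and was not tested.

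**Figure D3:**
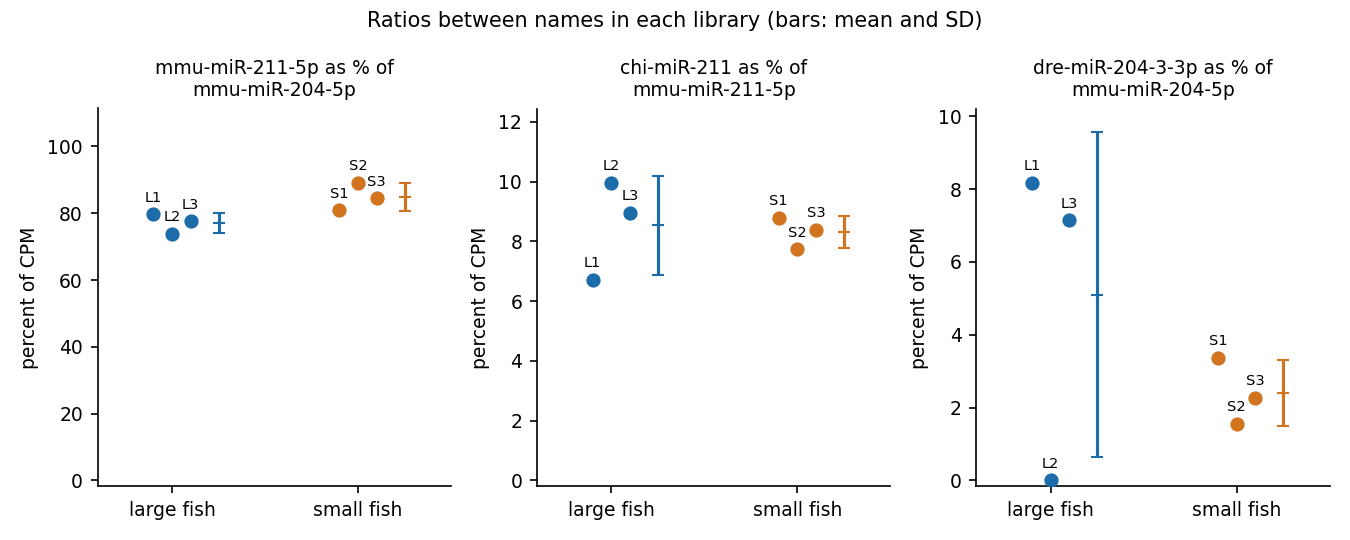
Ratio between names in each library, in percent of CPM (y axis), for miR-211 over miR-204, for the name chi-miR-211 over mmu-miR-211-5p, and for the 3p over the 5p strand of miR-204, with library names beside the points and bars for the mean and SD of 3 pools. The first ratio lies between 73.8% and 89.1% and the next between 6.71% and 9.96%, while the 3p to 5p ratio spreads from 0% in L2 to 8.17% in L1.

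The 3p strand was rare in both groups and did not pass the test. Its most abundant name, dre-miR-204-3-3p, stood at 5.50 CPM in L1, 0 in L2 and 5.52 in L3, against 16.0 in S1, 4.25 in S2 and 16.0 in S3. The groups overlapped, since L1 and L3 lay above S2. The log2 difference was -1.72 (standard error 0.82, limma adjusted p = 0.189). It depended on L2 and on the pseudocount, being -0.82 without L2, -0.67 with a pseudocount of 10 and -2.83 with one of 0.1. Because dre-miR-204-3-3p needed the small fish to enter the test, this difference is given as a description only. In L2 its count was 0, which allows up to 0.392 CPM by a one-sided limit of 3 counts. The total behind this limit, 7660938, is the sum of miRNA counts over all names in L2 and not a number of reads.

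The other 3p names were ssa-miR-204-3p, dre-miR-204-2-3p and oan-miR-204-3p, with log2 differences of -2.01, -1.76 and -1.70 at limma adjusted p of 0.128, 0.146 and 0.151. They were tested because of their level in small fish, so these differences are given as a description only. Each was at 0 in both L2 and L3 and had 25 to 29 counts in L1, whereas dre-miR-204-3-3p had 36 counts in L3 and none in L2. Of the 1400 entries with at least 25 counts in every small fish library, which include the 4 names of the 3p strand, 29 were at 0 in L2, 9 in L3 and 3 in L1. The 3p strand was at 8.17% of the 5p strand in L1, 0% in L2 and 7.14% in L3, where 3 counts in L2 would be 0.958%, against 3.37% in S1, 1.56% in S2 and 2.27% in S3. The averages were 5.10% ± 4.45 for large fish and 2.40% ± 0.913 for small fish (SD, n = 3 pools each), and their difference of 2.71 percentage points was smaller than the spread of the large fish pools (2-sided exact permutation test, p = 0.4, adjusted p = 0.533). It moved with each large fish library, to 1.17 percentage points without L1, 5.26 without L2 and 1.69 without L3 (exact permutation p = 0.8, 0.1 and 0.8, where 0.1 is the least possible).

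Families known from other vertebrates to mark tissues, and a list of families described as targeting MITF, were set beside miR-204. Some moved in the same direction as miR-204, and others did not. The MITF list was chosen by target and does not stand for a tissue. Families were taken at their most abundant name, and 16.4% of the 152 families passed the limma threshold as lower and 4.61% as higher, with a median log2 difference of -0.20. In the list of families described in mammals as targeting MITF, 4 of 6 were tested and 1 was lower, miR-148, at a log2 difference of -1.07 (standard error 0.26, limma adjusted p = 0.0340). The other tested members of this list were miR-101, miR-137 and miR-218, with log2 differences of -0.23, -1.18 and -0.06, and the median of the list was -0.65. Of the 6 families in the list of eye and sensory epithelium, 2 were tested and none passed: miR-184, abundant in lens and cornea, was at 53.9 to 78.7 CPM for large fish and 17.7 to 273 for small fish, and miR-9, a neural family, at 1.71 to 3.65 and 4.19 to 34.2.

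The list of skin epithelium had 5 families, of which 1 was lower, miR-141 of the epithelial miR-200 group, at a log2 difference of -2.21 (standard error 0.51, limma adjusted p = 0.0307), and the median was -2.01. The keratinocyte families miR-203 and miR-205 were lower in S2, at 93.5 and 49.8 CPM, than in any large fish library. The other families, miR-200 and miR-429, did not pass, at log2 differences of -1.58 and -1.34 (limma adjusted p = 0.0733 and 0.102). Like miR-141, they were lower in every large fish library than in every small fish library, as were 29.6% of all tested entries. The summed level of the list was 404 to 624 CPM over the large fish libraries, against 5029 in S1, 749 in S2 and 2599 in S3. In the muscle list, 3 of 4 tested families were lower, miR-1, miR-133 and miR-206. The other, miR-499, did not pass (log2 difference -0.51, limma adjusted p = 0.666) and was highest in L3, at 51.4 CPM. The sums of the list ran from 2381 to 6661 CPM for large fish and from 10599 to 17520 for small fish, with S1 the lowest of the small fish. Most of these sums was miR-206, with means of 3201 CPM for large fish and 11462 for small fish. Of the 4 leukocyte families 3 were higher, miR-142, miR-150 and miR-223, and the sums ran from 9577 to 11975 CPM for large fish and from 3386 to 4637 for small fish. Neither of the erythroid families miR-144 and miR-451 passed, and their sums overlapped, at 3118 to 3275 and 1411 to 3344 CPM. The part of these tissues in the miR-204 values was not tested, and in plasma, fewer vesicles from a cell type and fewer copies per vesicle cannot be told apart.

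The families whose profile was most like that of miR-204 over the 6 libraries, among 107 with a mean of at least 10 CPM, were miR-130, miR-196, miR-365, miR-10 and miR-148. Their Pearson correlations of log2(CPM + 1) with mmu-miR-204-5p were 0.966, 0.952, 0.945, 0.943 and 0.919, over 6 points that share library and depth and fall into the groups of large and small fish, so they are given as a description only. miR-196 and miR-10, encoded within the HOX clusters, averaged 82.9 and 199 CPM for large fish and 231 and 491 for small fish. Each of the 5 passed as lower in large fish, with log2 differences from -1.53 to -1.02.

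The ratio of miR-204 to each of these 5 families was lower in every large fish library than in every small fish library. Against miR-196, it was 0.896 in L1, 0.754 in L2 and 0.647 in L3, and 2.37 in S1, 1.26 in S2 and 2.56 in S3. The log2 ratio, large minus small fish, was -1.38 against miR-196, -1.61 against miR-10, -1.63 against miR-130, -1.84 against miR-148 and -1.86 against miR-365 (2-sided exact permutation tests, p = 0.1 each, the least possible, and 0.1 adjusted over the 5 ratios). These ratios were chosen after the values were seen. miR-204 had a log2 difference of -2.89, already lower than that of each of these families. The direction of the ratios followed from that, so the permutation tests add no separate evidence. Within the small fish, miR-204 varied more than these families: S2 held 273 CPM of miR-204 against 705 in S3, while miR-148 was at 598 and 640 in the same libraries.

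**Figure D4:**
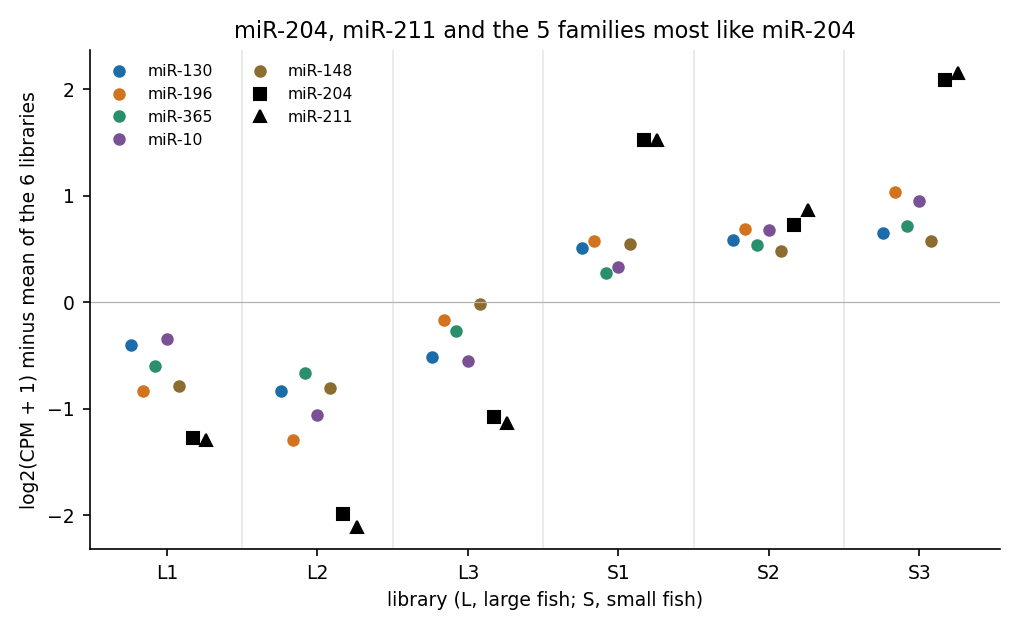
Log2(CPM + 1) of each family in each library minus its mean over the 6 libraries (y axis), for miR-204 and miR-211 (black) and the 5 families with the highest Pearson correlation with miR-204 (colours). All 7 families are below their mean in the 3 large fish libraries and above it in the 3 small fish libraries, and miR-204 and miR-211 lie farthest from 0 in every library.

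Across 20 other settings of scaling, filter, pseudocount, test and libraries, the 5p difference kept its direction. The log2 difference of mmu-miR-204-5p lay between -3.25 and -2.41 and passed in 18 settings, and that of mmu-miR-211-5p lay between -3.35 and -2.67 and passed in 18. The setting without a fold threshold is among these and reuses the main fit, so its result was fixed in advance. TMM scaling, which moves the median of all tested entries from -0.26 to -0.10, gave -2.69 for mmu-miR-204-5p (limma adjusted p = 0.0166), and quantile normalization, with a median of 0.09, gave -2.41 (limma adjusted p = 0.0297). Relative to these medians, the difference of miR-204 was therefore present under each scaling.

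**Figure D5:**
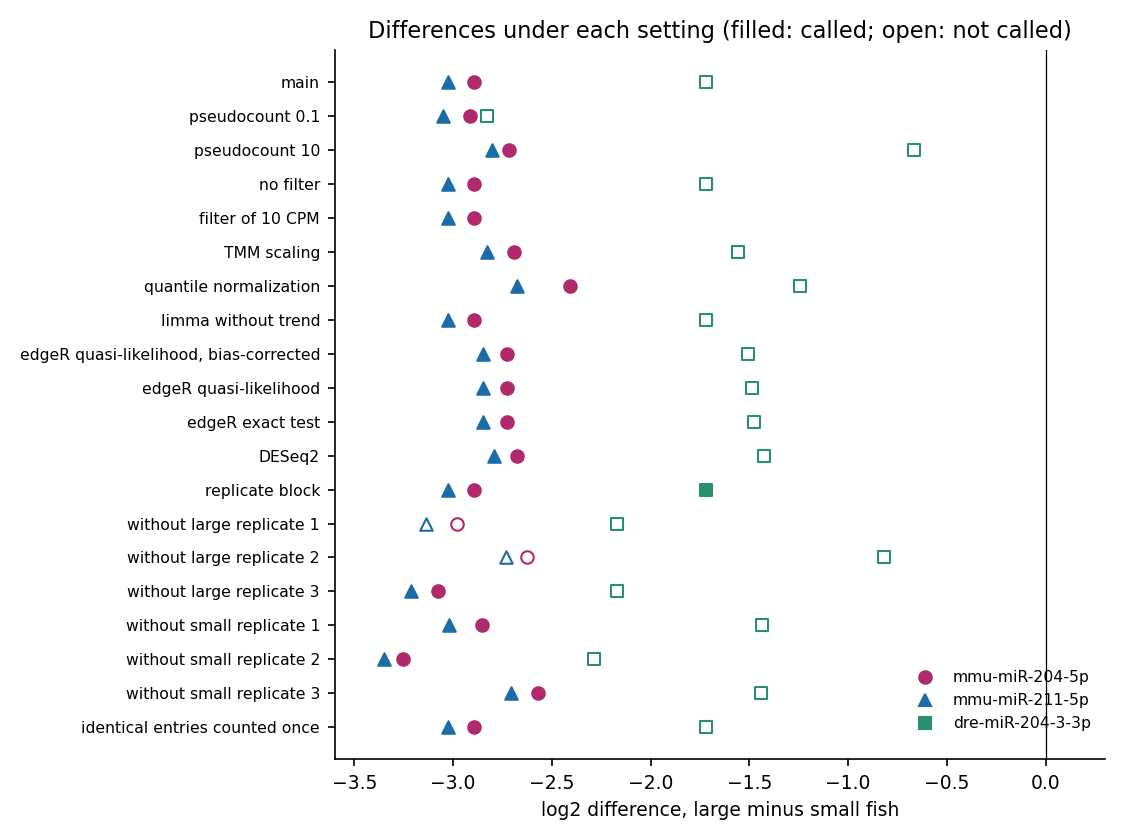
Log2 difference between large and small fish (x axis) of mmu-miR-204-5p, mmu-miR-211-5p and dre-miR-204-3-3p under the main test and the other settings (y axis). The setting without a fold threshold is not drawn. Markers are filled where the adjusted p was at most 0.05 and open where it was not. Every value is below 0; both 5p entries are open only without large fish replicate 1 or 2, and the 3p entry is filled only with a replicate block.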

How the data were processed

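Small RNA libraries of plasma exosomes were made from 3 ng of RNA with molecular identifiers. The authors kept reads of 15 to 35 nt, filtered out rRNA, tRNA and repeats with Bowtie, identified miRNAs against the grass carp genome and miRBase, counted reads mapped to precursors, and collapsed reads sharing an identifier to 1. The deposited values are CPM, scaled to the sum of all miRNA counts of a library, without length normalization. Whole counts were recovered from the smallest step (100% of values above 0, tolerance 0.02). Groups and replicate numbers came from the sample titles.

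The whole table was analysed in R 4.3.3 with limma 3.58.1 (trend, log2(CPM + 1), Benjamini-Hochberg adjustment), edgeR 4.0.16 and DESeq2 1.42.0. The fit was also run on simulated data, with entries drawn independently at a common dispersion. Names in the real table share values, so that run does not measure error rates here. The study used edgeR on counts; limma was the main test because CPM were deposited. Replicates are pools, and p values measure the spread between pools. Values named are those of every member, of list families on which a result turns and of the 5 most similar families. Members, lists and tests were chosen with earlier results of these data known; the ratios of tni-miR-204b, chi-miR-211 and the most similar families and the bias-corrected quasi-likelihood test were added later. Alternatives were other pseudocounts, filters, scalings and tests, a replicate block, each library left out and identical entries counted once.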

Additional observations from a re-analysis of the deposited data

How the results depend on the processing

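The number of miR-204 and miR-211 entries lower in large fish was 8 or more in 17 of 20 other settings, and no entry was called higher in any. The setting without a fold threshold reuses the main fit, so it could not give fewer than 8. Leaving out 1 library at a time gave between 0 (without L1 or without L2) and 8 entries, log2 differences from -3.25 to -2.57 for mmu-miR-204-5p and from -3.35 to -2.71 for mmu-miR-211-5p. For dre-miR-204-3-3p the range was -2.29 to -0.82, for the 3p to 5p ratio 1.17 to 5.26 percentage points and for miR-211 over miR-204 -9.80 to -5.74. With all 6 libraries, the miR-211 over miR-204 difference was -3.92 percentage points when the distinct sets of values were summed. It was -7.48 when 1 CPM was added to each level. Calls over the whole table moved more, from 257 lower and 51 higher in the main test. They were 22 and 24 with edgeR's quasi-likelihood test, 148 and 95 with its bias-corrected form, and 95 and 138 after quantile normalization. The quasi-likelihood runs differed only in the form of the fit. Why the calls moved was not tested. A filter of 10 CPM left no 3p entry to test. With a replicate block, 9 entries were lower, of 183 lower and 24 higher over the whole table, and dre-miR-204-3-3p passed at -1.72 (limma adjusted p = 0.0249). That entry needed the small fish to be tested, so its direction is not counted. Over all tested entries, deviations of same-numbered libraries correlated at -0.05, -0.06 and 0.02, which gave no sign of pairing by number. Such a correlation over the table cannot decide on pairing for single entries. For mmu-miR-204-5p the replicate block lowered the standard error from 0.40 to 0.28. Low counts limit the 3p names, hsa-miR-211-5p and chi-miR-211, the last at 19 to 35 counts in large fish. The 3p names had 25 to 29 counts in L1, of 5272418 in all, and none in L2, of 7660938. Why they were at 0 in L2 was not tested.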
